A study of Mus musculus with 11 samples.

Results

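The γ-glutamyl transferase (GGT) genes encode the enzyme family that GGsTop inhibits, the compound given to one group of mice in this series of mouse airway RNA-seq libraries. The members were chosen by symbol and not by their values, as the genes whose Ensembl identifiers carry the symbols Ggt1, Ggt5, Ggt6 and Ggt7. Earlier results of these data were known when they were chosen. They are 4 of the 21899 genes listed.

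Wild-type male BALB/c mice of 6 to 8 weeks were used in all groups. Mice of the PBS group (3 libraries) were not sensitized and received PBS only. Mice of the OVA/LPS/Vehicle group (4 libraries, labelled 12, 34, 56 and 78) were sensitized with ovalbumin (OVA) and alum on days 0 and 7, given OVA through the nose on days 14 to 17 and lipopolysaccharide (LPS) on days 19 and 21, and given vehicle into the trachea on 3 days from day 21 to day 23. Mice of the OVA/LPS/GGsTop group (4 libraries, numbered 1 to 4) had the same treatment with GGsTop in place of vehicle, and the endpoint of all groups was day 25. The sources do not say whether the labels 12, 34, 56 and 78 are pools, so p-values measure only the spread between these libraries. The labels call the tissue trachea, whereas the methods describe bluntly dissected airway from which the trachea was left out.

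GGT is a membrane enzyme on the outer cell surface that cuts the γ-glutamyl bond of glutathione, the main thiol antioxidant of cells and of the fluid lining the airway. The cysteinylglycine left behind is split by dipeptidases, and its cysteine can be taken up and used to build glutathione again, a route known as the γ-glutamyl cycle. Ggt1 encodes the classical enzyme. Ggt5 encodes a related enzyme known for turning leukotriene C4 into leukotriene D4, a constrictor of airway smooth muscle. Ggt6 and Ggt7 were assigned to the family by sequence. GGsTop is a phosphonate that binds the enzyme covalently at its active site, so it acts on the protein, and the libraries measure the messenger RNA.

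The active site of GGT1 is a threonine at the start of the small subunit, made when the precursor cuts itself. The coding sequence from just before that codon onward is shown for Ggt1, where it encodes the active site, with the aligned stretches of Ggt5, Ggt6 and Ggt7. Whether GGsTop reacts with the products of Ggt6 and Ggt7 was not tested. Capitals mark the codon for this threonine in Ggt1 and the codon aligned with it in Ggt5 and Ggt7, in the reference strand sense of each gene (GRCm38, GENCODE M21). No codon of Ggt6 was aligned with it, so none is in capitals.
Ggt1: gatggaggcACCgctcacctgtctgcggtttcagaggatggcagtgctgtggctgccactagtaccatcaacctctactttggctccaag
Ggt5: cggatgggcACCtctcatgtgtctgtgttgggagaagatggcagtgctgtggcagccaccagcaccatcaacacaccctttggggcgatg
Ggt6: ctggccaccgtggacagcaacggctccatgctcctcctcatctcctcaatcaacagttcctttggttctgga
Ggt7: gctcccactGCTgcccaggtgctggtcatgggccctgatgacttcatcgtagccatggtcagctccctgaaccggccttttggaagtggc

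The codon is number 380 of 568 in Ggt1 and number 389 of 573 in Ggt5, and both read ACC, which encodes threonine. In Ggt7 the aligned codon, number 473 of 662, reads GCT, but the codon just before it, number 472, reads ACT and encodes threonine. The alignment of Ggt6, whose coding sequence has 497 codons, had a gap at this place, and codon number 363 at the start of its window reads ACC and encodes threonine. The codon that corresponds to the active site in Ggt6 and Ggt7 therefore depends on the alignment by a few codons. Over the 30 codons of the Ggt1 window, Ggt5 encoded the same amino acid at 19 codons and Ggt7 at 9, and Ggt6 at 10 of the 24 codons aligned. Over the whole coding sequences, Ggt5 was identical to Ggt1 at 41.3% of the aligned amino acids, Ggt7 at 32.9% and Ggt6 at 31.3%, and the pairs without Ggt1 ranged from 29.3% to 31.1%.

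Ggt1 (ENSMUSG00000006345) lies on the forward strand at chr10:75561604-75586200 and Ggt5 (ENSMUSG00000006344) on the same strand at chr10:75589340-75617200, with 3139 bases between them. Ggt6 (ENSMUSG00000040471) lies at chr11:72435526-72438400 on the forward strand, and Ggt7 (ENSMUSG00000027603) at chr2:155490379-155518237 on the reverse strand. The windows printed above are exonic and within coding sequence, at chr10:75584931-75585170 for Ggt1, chr10:75609316-75609857 for Ggt5, chr11:72437756-72437827 for Ggt6 and chr2:155495732-155495935 for Ggt7. Those of Ggt1, Ggt5 and Ggt7 each cross 1 exon junction, and the introns are not printed. No stretch of 50 bases was shared between transcripts of 2 members, so fragments of these lengths can be told apart. Ggt7 overlaps Acss2, a gene for acetyl-CoA synthesis on the other strand, by 197 exon bases, and 4.64% of the 50-base stretches of Ggt7 were also in Acss2 transcripts. Whether counting used strand is not given in the sources used here, so fragments of Ggt7 and Acss2 cannot be told apart in these bases.

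The libraries held between 14513136 and 18632382 fragments, as implied by the deposited FPKM, which scale the fragments of a gene to its exon length and to the library size. All 4 genes were expressed at low levels. The mean over the 11 libraries was 1.63 ± 0.61 FPKM for Ggt5, 1.55 ± 0.62 for Ggt6, 0.991 ± 0.34 for Ggt7 and 0.665 ± 0.30 for Ggt1 (SD, n = 11), against a median of 6.89 FPKM over the 14004 genes tested. Only 14.01% of the genes tested had a mean below that of Ggt5, and 2.81% a mean below that of Ggt1. The number of fragments per library was 74 to 334 for Ggt5, 21 to 71 for Ggt7, 12 to 72 for Ggt6 and 12 to 68 for Ggt1. Exact Poisson intervals on these numbers, which cover counting error only, are therefore wide for every member but Ggt5.

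Some features of the libraries moved with the groups and are given here for all results. Per 10 points of GC content, genes deviated from their mean by −0.26 to −0.19 on the log2 scale in OVA/LPS/Vehicle libraries, against 0.046 to 0.11 in those with GGsTop. In the PBS group this slope was 0.061, 0.048 and 0.53, so PBS 3 stood apart. Mitochondrial genes made up 14.5% to 19.5% of the FPKM in the OVA/LPS/Vehicle group, 2.08% to 10.1% in the PBS group and 7.404% to 11.1% in the OVA/LPS/GGsTop group. The GC content of the longest transcript was 51.4% for Ggt5, 56.3% for Ggt1, 58.1% for Ggt6 and 58.8% for Ggt7, against a median of 49.9% over the genes tested. Of the cell types expected, club and ciliated cell markers summed to 28071 to 50771 FPKM, and cartilage markers, which mark the tracheal rings, to 0.604 to 50.7 FPKM. None of the 98 marker genes was listed at 0 in every library. A thyroid and parathyroid list summed to 101, 282, 598 and 2.81 FPKM in OVA/LPS/Vehicle 12, 34, 56 and 78 and to at most 4.75 FPKM in the other 7 libraries. A heart list summed to 95.3, 1726 and 136 FPKM in PBS 1 to 3, 838 to 1348 in OVA/LPS/Vehicle and 557 to 2350 in OVA/LPS/GGsTop. A fat list ranged from 29.8 to 984 FPKM. OVA/LPS/Vehicle 12 had the highest sums of the thymus list (38.7 FPKM) and of the neuron and Schwann cell list (97.6 FPKM).

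Ggt5, the leukotriene C4-cleaving member, was the only one of the 4 genes called between groups by limma on the deposited FPKM, and Ggt6 was called only in some alternatives given with it. It was 2.37, 1.71 and 3.03 FPKM in PBS 1, 2 and 3. In the OVA/LPS/Vehicle group it was 1.25, 1.34, 0.784 and 1.152 FPKM in libraries 12, 34, 56 and 78, and in the OVA/LPS/GGsTop group it was 1.41, 1.57, 1.65 and 1.62 FPKM in libraries 1 to 4. All OVA/LPS/Vehicle libraries were below all OVA/LPS/GGsTop libraries, which in turn were below all PBS libraries. This order without overlap was shared by 1.67% of the genes tested. The nearest libraries of neighbouring groups were within counting error. OVA/LPS/Vehicle 34 had 125 fragments against 126 in OVA/LPS/GGsTop 1, and OVA/LPS/GGsTop 3 had 154 against 157 in PBS 2. The 95% Poisson intervals of these libraries overlapped.

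**Figure D1:**
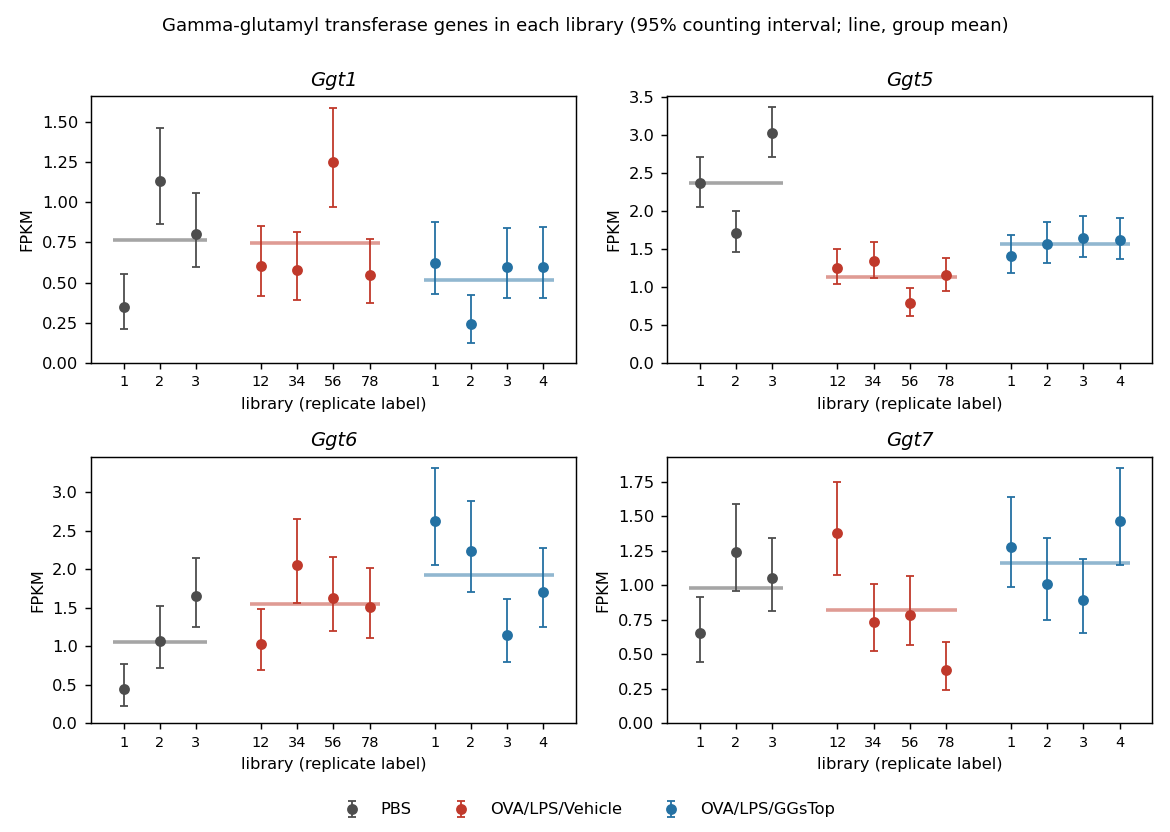
FPKM of Ggt1, Ggt5, Ggt6 and Ggt7 (y axes from 0) in each of the 11 libraries (x axes, by replicate label), with points for libraries, bars for the exact 95% Poisson interval of counting and lines for group means. The 3 groups of Ggt5 do not overlap, with OVA/LPS/Vehicle at 0.784 to 1.34, OVA/LPS/GGsTop at 1.41 to 1.65 and PBS at 1.71 to 3.03 FPKM, whereas the groups of the other genes overlap. The counting intervals of the nearest Ggt5 libraries of neighbouring groups do overlap.

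Differences were tested with limma on log2(FPKM + 1) in 1 fit of all libraries, and the two-sided p-values were corrected over all genes tested after Benjamini and Hochberg. The mean of Ggt5 fell by 52.2% from PBS (2.37 ± 0.66 FPKM, SD, n = 3) to OVA/LPS/Vehicle (1.13 ± 0.24 FPKM, SD, n = 4). On the log2(FPKM + 1) scale, which understates the change of low genes, the difference was −0.65 (SE 0.14, 95% interval −0.97 to −0.33, limma adjusted p = 0.00801). It was −0.99 with a pseudocount of 0.1 and −1.07 with voom on the recovered fragments. Without PBS 3 it was −0.51 (limma adjusted p = 0.0278), and after correction for GC content it was −0.58 (limma adjusted p = 0.0218). Thus 1 of the 4 members was called in this comparison, where 38% of the genes tested were called and 22.1% were called lower.

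Several marker lists were lower beside Ggt5. The summed level of 6 endothelial markers was 587 to 988 FPKM with PBS against 462 to 516 FPKM with OVA, LPS and vehicle, and 4 of 6 were called lower. The sum of 6 alveolar markers was 10250 to 16313 against 5280 to 8708 FPKM (2 of 6 called lower), and that of 6 smooth muscle markers was 594 to 782 against 479 to 526 FPKM (1 of 5 tested called lower). Sftpc alone made up most of the alveolar sum. Hopx (91.1 to 132 against 97.4 to 161 FPKM) and Lamp3 (47.6 to 74.2 against 50.7 to 87.1 FPKM) of that list overlapped and did not fall with it. Of 6 fibroblast markers 3 were called lower, although their sum overlapped (208 to 309 against 168 to 256 FPKM). Pdgfrb, of that list and named after its values were seen, was 39.6 to 51.3 FPKM in PBS, 20.7 to 21.4 in OVA/LPS/Vehicle and 22.1 to 34.9 in OVA/LPS/GGsTop, the same order without overlap as Ggt5. Other genes of that list did not share this order. Dcn was 11.2 to 73.2 FPKM in PBS against 53.3 to 78.1 in OVA/LPS/Vehicle, and Lum 2.52 to 31.7 against 20.3 to 26.5. Of 6 club and ciliated markers 4 were called higher, with sums of 28071 to 39174 against 33166 to 50771 FPKM. Scgb1a1 alone made up most of these sums, and Cyp2f2 was 814 to 1010 against 617 to 896 FPKM. The sums of 13 of the 16 lists, the fibroblast and the club and ciliated lists included, overlapped between PBS and OVA/LPS/Vehicle. The part of these cells in the result of Ggt5 was not tested. In such bulk samples fewer cells of a type and less RNA per cell cannot be told apart.

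Between OVA/LPS/GGsTop and OVA/LPS/Vehicle, Ggt5 was higher in each of the 4 libraries with GGsTop, at 1.56 ± 0.11 against 1.13 ± 0.24 FPKM (SD, n = 4 each). The difference of 0.27 (SE 0.13, 95% interval −0.02 to 0.57) did not pass the threshold (limma adjusted p = 0.187). No overlap in this direction was seen for 17.3% of the genes tested, and for 25.4% in the fall from PBS to OVA/LPS/Vehicle. Against PBS, Ggt5 in the OVA/LPS/GGsTop group differed by −0.38 (SE 0.14, 95% interval −0.69 to −0.06, limma adjusted p = 0.175), and 7.54% of the genes tested were lower without overlap there. This difference passed the threshold when PBS 2, the lowest of its group, was left out (−0.52, limma adjusted p = 0.0393) and with limma array weights (−0.39, limma adjusted p = 0.0260). These alternatives called 639 of 13993 and 1178 of 14004 genes lower. The comparisons are not independent of each other, since any pair of them shares the libraries of 1 group.

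The sums of the endothelial, alveolar and smooth muscle lists overlapped between OVA/LPS/GGsTop and OVA/LPS/Vehicle. In OVA/LPS/GGsTop 4 the endothelial sum was 320 and the alveolar sum 4643 FPKM, the lowest of all libraries, and the smooth muscle sum was 1148 FPKM, the highest. The fibroblast sum of that library, 332 FPKM, was also the highest. Ggt5 in that library was 1.62 FPKM, inside the range of its group, and the part of these cells in it was not tested.

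**Figure D2:**
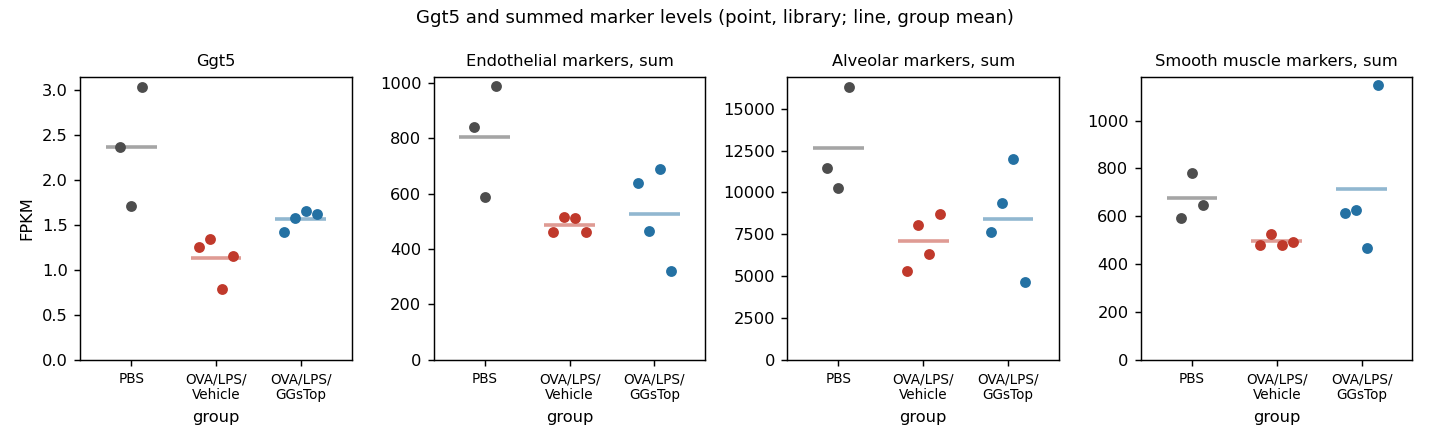
FPKM of Ggt5 and summed FPKM of the endothelial, alveolar and smooth muscle marker lists (y axes from 0) by group, with points for the 11 libraries and lines for group means. All 4 quantities are lower in OVA/LPS/Vehicle than in PBS without overlap, and the marker sums of OVA/LPS/GGsTop spread from 320 to 688, 4643 to 11990 and 469 to 1148 FPKM. Sftpc alone makes up most of the alveolar sum.

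Ggt1, the classical enzyme, was 0.350, 1.13 and 0.802 FPKM in PBS 1 to 3. It was 0.605, 0.575, 1.25 and 0.544 FPKM in OVA/LPS/Vehicle 12, 34, 56 and 78. The libraries OVA/LPS/GGsTop 1 to 4 had 0.623, 0.242, 0.595 and 0.594 FPKM. The groups overlapped, and the highest value (68 fragments, OVA/LPS/Vehicle 56) and the lowest (12 fragments, OVA/LPS/GGsTop 2) were each a library apart from the rest of its group. The difference between OVA/LPS/Vehicle and PBS was −0.01 (SE 0.19, 95% interval −0.42 to 0.40, limma adjusted p = 0.974), which does not exclude a change of up to 0.4 in either direction on this scale. Between OVA/LPS/GGsTop and OVA/LPS/Vehicle it was −0.19 (SE 0.17, 95% interval −0.58 to 0.19, limma adjusted p = 0.467), and between OVA/LPS/GGsTop and PBS it was −0.20 (SE 0.19, 95% interval −0.62 to 0.21, limma adjusted p = 0.561). After GC correction the difference between OVA/LPS/GGsTop and OVA/LPS/Vehicle was −0.44 (SE 0.18, 95% interval −0.83 to −0.04, limma adjusted p = 0.201).

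Ggt6 had its lowest value, 0.438 FPKM from 12 fragments, in PBS 1, and was 1.06 and 1.65 FPKM in PBS 2 and 3. It was 1.03, 2.05, 1.62 and 1.51 FPKM in OVA/LPS/Vehicle 12, 34, 56 and 78. With GGsTop it was 2.63, 2.24, 1.151 and 1.71 FPKM in libraries 1 to 4. The group means went from 1.05 ± 0.61 (SD, n = 3) in PBS to 1.55 ± 0.42 and 1.93 ± 0.64 (SD, n = 4 each) in OVA/LPS/Vehicle and OVA/LPS/GGsTop, but the groups overlapped because PBS 3 was above the lowest library of each. The difference between OVA/LPS/Vehicle and PBS was 0.35 (SE 0.23, 95% interval −0.16 to 0.85, limma adjusted p = 0.249). It passed the threshold after GC correction (0.70, limma adjusted p = 0.0431) and with array weights (0.79, limma adjusted p = 0.00285), and it was 0.11 without PBS 1 (limma adjusted p = 0.723). Over all genes, 1101 of 13987 were called higher after GC correction and 3443 of 14004 with array weights. Between OVA/LPS/GGsTop and PBS the difference was 0.53 (SE 0.23, 95% interval 0.03 to 1.04, limma adjusted p = 0.222), or 1.002 with array weights (limma adjusted p = 0.00537) and 0.30 without PBS 1 (limma adjusted p = 0.480). The club and ciliated sum was also higher without overlap in that comparison (41659 to 48919 against 28071 to 39174 FPKM), and the lymphocyte sum lower (28.3 to 51.6 against 63.7 to 83.7 FPKM), and their part in the value of Ggt6 was not tested. Between OVA/LPS/GGsTop and OVA/LPS/Vehicle it was 0.19 (SE 0.21, 95% interval −0.28 to 0.65, limma adjusted p = 0.578), and it turned to −0.094 after GC correction.

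Ggt7 was 0.651, 1.25 and 1.05 FPKM in PBS 1 to 3. It was 1.38, 0.737, 0.788 and 0.385 FPKM in OVA/LPS/Vehicle 12, 34, 56 and 78, the widest spread of any group of this gene. The values with GGsTop were 1.28, 1.01, 0.893 and 1.47 FPKM in libraries 1 to 4. The groups overlapped in all comparisons, and OVA/LPS/Vehicle 12 lay between OVA/LPS/GGsTop 1 and 4, the highest of their group. The difference was −0.14 (SE 0.18, 95% interval −0.54 to 0.27, limma adjusted p = 0.569) for OVA/LPS/Vehicle against PBS, and it turned to 0.23 after GC correction. With GGsTop against vehicle it was 0.27 (SE 0.17, 95% interval −0.11 to 0.64, limma adjusted p = 0.300) and turned to −0.023 after GC correction. For OVA/LPS/GGsTop against PBS it was 0.13 (SE 0.18, 95% interval −0.27 to 0.53, limma adjusted p = 0.7101).

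With the inhibitor compared with its vehicle, 0 of the 4 members were thus called by limma, where 8.71% of the genes tested were called. On the deposited FPKM none had an unadjusted p under 0.05, and voom called 0 as well. An unadjusted p under 0.05 was seen for 1 member after GC correction (Ggt1) and for 2 with array weights (Ggt5 and Ggt7), with 0 called in either. Against PBS, 0 of the 4 were called in the OVA/LPS/GGsTop group, where 2.88% of the genes tested were called. In that comparison 2 members, Ggt5 and Ggt6, had an unadjusted p under 0.05, and voom called 0. The 4 members give 12 tests over the 3 comparisons, and the adjustment was made over all genes.

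**Figure D3:**
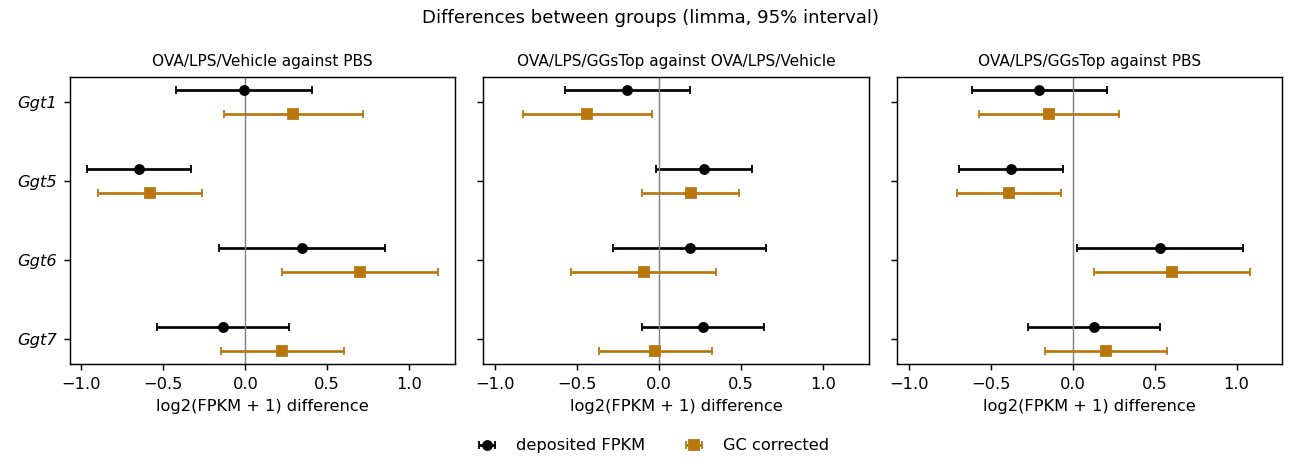
Differences in log2(FPKM + 1) between groups (x axes) for the 4 genes in the 3 comparisons, as limma estimates with 95% intervals, from the deposited FPKM (circles) and after GC correction (squares). Ggt5 in OVA/LPS/Vehicle against PBS, at −0.65 and −0.58, is the one difference past the threshold in both.

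The order of the genes by level also differed between libraries. Ggt5 had the highest FPKM of the 4 genes in all 3 PBS libraries, with 33.2% to 62.2% of their summed FPKM. In the OVA/LPS/Vehicle group its share was 17.6% to 32.0%, and Ggt6 was highest in 3 of the 4 libraries and Ggt7 in library 12. In the OVA/LPS/GGsTop group the share of Ggt5 was 23.8% to 38.5%, and Ggt6 was highest in 3 of the 4 libraries. Over all libraries Ggt5 was above Ggt6 in 5 of 11 and above Ggt7 in 9 of 11, and Ggt6 was above Ggt7 in 8 of 11 and Ggt7 above Ggt1 in 9 of 11. Over all libraries the values of neighbours in this order overlapped. Within groups Ggt5 was above Ggt6 in 3 of 3 PBS libraries and Ggt7 above Ggt1 in 4 of 4 OVA/LPS/GGsTop libraries, both without overlap of the values, and these differences were not tested. The summed FPKM of the 4 genes overlapped between the groups, at 3.80 to 6.53 in PBS, 3.59 to 4.70 in OVA/LPS/Vehicle and 4.29 to 5.95 in OVA/LPS/GGsTop.

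**Figure D4:**
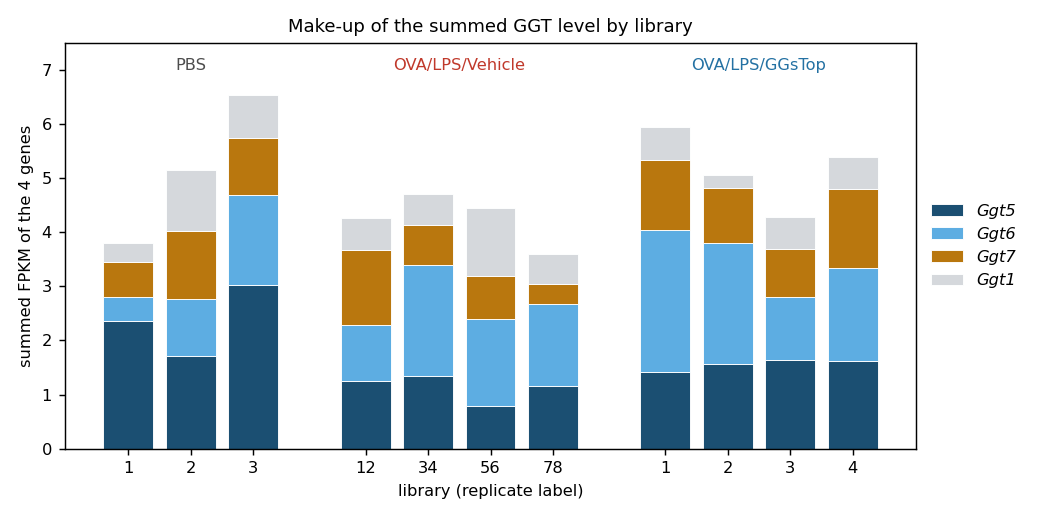
Summed FPKM of Ggt5, Ggt6, Ggt7 and Ggt1 (y axis from 0, stacked bars) in each library (x axis, by replicate label and group). Ggt5 is the largest part of all 3 PBS bars, with 33.2% to 62.2%, and Ggt6 the largest part of 3 of 4 bars in each of the other groups.

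The γ-glutamyl cycle was followed with a list of 20 genes that make, export and break down glutathione and its products. In OVA/LPS/Vehicle against PBS, 17 were tested, of which 4 were called higher and 5 lower, with a median difference of −0.09 against −0.01 over all genes tested. The corresponding shares of all genes were 15.9% and 22.1%. After GC correction 0 were called higher and 2 lower, Dpep1 and Gss, where 1101 and 1803 of all 13987 genes were. Leaving out single libraries left between 1 and 4 called higher and between 1 and 5 called lower, with 1 and 1 without PBS 3. The count called higher was also 1 without OVA/LPS/Vehicle 34 or 78, and the count called lower was 3 without OVA/LPS/Vehicle 12 and 2 without 34, 56 or 78. Over all genes, 1172 of 14031 were called higher and 1885 lower without PBS 3. Without single OVA/LPS/Vehicle libraries, 1507 to 1776 of all genes were called higher and 2268 to 2864 lower.

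Dpep1, the membrane dipeptidase that splits the cysteinylglycine released by GGT and turns leukotriene D4 into E4, had the largest difference of the list. It was 79.5, 37.2 and 117 FPKM in PBS 1 to 3, 24.8, 30.5, 23.3 and 34.3 FPKM in OVA/LPS/Vehicle 12, 34, 56 and 78, and 51.7, 51.1, 55.7 and 42.3 FPKM in OVA/LPS/GGsTop 1 to 4. The OVA/LPS/Vehicle libraries were below all others. Dpep1 fell by 1.30 on the log2 scale against PBS (SE 0.30, limma adjusted p = 0.00900), a call kept in all 16 alternatives tried. Between OVA/LPS/GGsTop and OVA/LPS/Vehicle the difference was 0.82 (SE 0.28, limma adjusted p = 0.0800), which passed the threshold with array weights (0.76, limma adjusted p = 0.00625) and in a fit of only these groups (0.82, limma adjusted p = 0.00535). Array weights called 3232 of all 14004 genes higher there, and the fit of only these groups 2119.

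Among the enzymes that degrade glutathione inside the cell, Chac2 was 3.57 ± 1.97 FPKM (SD, n = 3) in the PBS group and rose to 8.04 ± 0.84 FPKM (SD, n = 4), by 1.07 (SE 0.24, limma adjusted p = 0.00776), or 0.47 after GC correction (limma adjusted p = 0.0592). Its relative Chac1 fell by 0.65 (SE 0.19, limma adjusted p = 0.0223), or differed by −0.32 after GC correction (limma adjusted p = 0.135). Of the enzymes that build glutathione, Gclm, the modifier subunit of glutamate-cysteine ligase, rose by 0.48 (SE 0.16, limma adjusted p = 0.0315), and this was 0.06 after GC correction. The catalytic subunit Gclc differed by −0.06 (limma adjusted p = 0.687). Gss, glutathione synthetase, fell by 0.27 (SE 0.09, limma adjusted p = 0.0440), or by 0.33 after GC correction (limma adjusted p = 0.0433), but its call was lost without any one of 6 of the 7 libraries compared.

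The cystine transporter is made of Slc7a11 and Slc3a2. Slc7a11 rose by 0.36 (SE 0.11, limma adjusted p = 0.0270), a direction that turned to −0.13 after GC correction. Slc3a2 fell by 0.41 (SE 0.15, limma adjusted p = 0.0458), or differed by −0.24 after GC correction (limma adjusted p = 0.255), and its call too was lost without any one of 6 of the 7 libraries. Of the peptidases that can also split cysteinylglycine, Lap3 rose by 0.55 (SE 0.17, limma adjusted p = 0.0282) and Cndp2 fell by 0.53 (SE 0.17, limma adjusted p = 0.0286), and both calls were lost after GC correction and without PBS 3. Leaving out 1 library ended the call of Lap3 in 5 of 7 cases, of Cndp2 and Gclm in 4, of Slc7a11 in 3 and of Chac1 in 2.

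With GGsTop against vehicle, 0 of the 17 cycle genes tested were called by limma or by voom on the recovered fragments. Of all genes tested, limma called 8.71% there. At an unadjusted p under 0.05 there were 3, Dpep1, Gss (0.22, SE 0.09, limma adjusted p = 0.115) and Acy3, which trims mercapturates (0.24, SE 0.10, limma adjusted p = 0.149). Against PBS, 0 were called with GGsTop by either tool, where limma called 2.88% of all genes tested. In that comparison 3 had an unadjusted p under 0.05, namely Chac2 (0.60), Lap3 (0.42) and Cndp2 (−0.37), with limma adjusted p = 0.181, 0.200 and 0.236. Dpep2, Dpep3 and Nat8, at mean levels of 0.245 FPKM or less in each group, were below the filter.

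**Figure D5:**
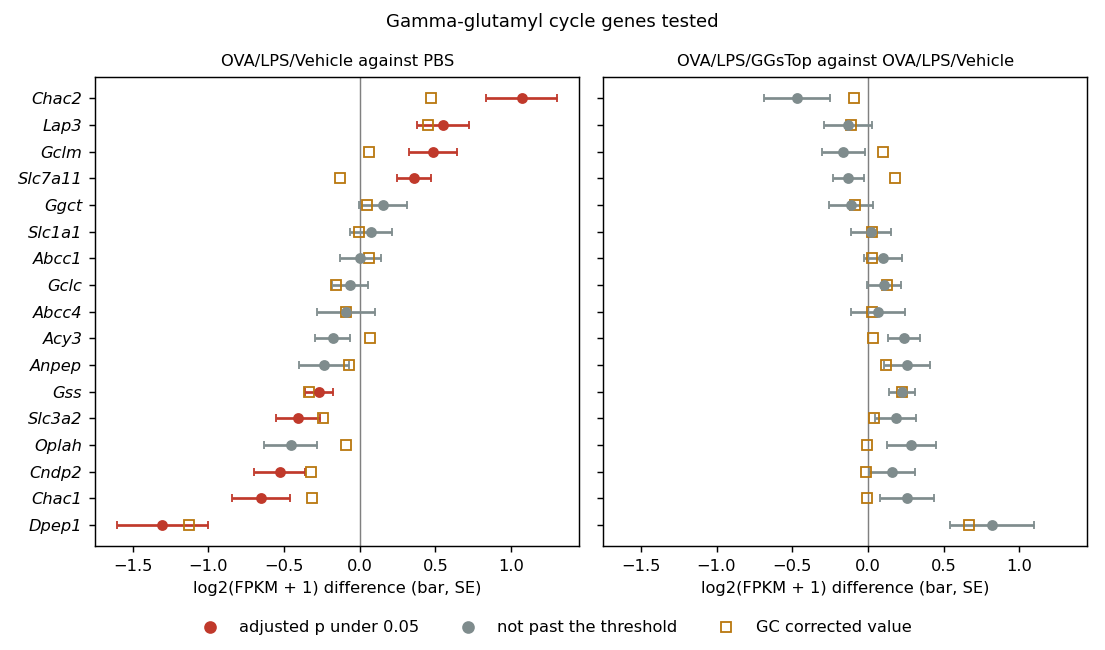
Differences in log2(FPKM + 1) (x axes) of the 17 γ-glutamyl cycle genes tested, ordered by OVA/LPS/Vehicle against PBS, with circles and SE bars from the deposited FPKM and open squares after GC correction. In OVA/LPS/Vehicle against PBS 4 are called higher and 5 lower before the correction, and with GGsTop against vehicle 0 are called, where 8.71% of all genes tested are.

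Leukotriene C4, the substrate of the Ggt5 product, is made by Alox5 and Ltc4s and its products are sensed by Cysltr1. Of this list 7 of 8 genes were tested, Oxgr1 being near 0. Cysltr1 was called in both comparisons with OVA/LPS/Vehicle, at 0.45 (SE 0.14, limma adjusted p = 0.0285) against PBS and −0.50 (SE 0.13, limma adjusted p = 0.0412) with GGsTop against vehicle, where 1.81% of all genes were called lower. After GC correction the former turned to −0.19 and the latter was −0.10 (limma adjusted p = 0.532), where 22 of all 13987 genes were called lower. The former call was lost without any one of 5 of the 7 libraries, and the latter without any one of its 8 libraries (limma adjusted p from 0.0687 to 0.112). Alox5 and Ltc4s differed by 0.71 (SE 0.21, limma adjusted p = 0.0521) and 0.56 (SE 0.16, limma adjusted p = 0.0502) with GGsTop against vehicle, and by −0.59 (SE 0.22, limma adjusted p = 0.0552) and −0.42 (SE 0.17, limma adjusted p = 0.0712) for OVA/LPS/Vehicle against PBS. After GC correction Ltc4s differed by 0.26 (limma adjusted p = 0.399) and −0.046 (limma adjusted p = 0.868) in these comparisons. Alox5 then differed by 0.56 (limma adjusted p = 0.134) and −0.41 (limma adjusted p = 0.149). With GGsTop against PBS, 0 of the 7 were called by limma, where 2.88% of all genes tested were called. An unadjusted p under 0.05 was seen for 1, Lta4h (−0.22). The smallest p-values after it were those of Mgst2 (0.46, limma adjusted p = 0.298) and Cysltr2 (−0.26, limma adjusted p = 0.318).

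The genes whose pattern was most like that of each member were found by Pearson's r of log2(FPKM + 1) over the 11 libraries, as a description, since these libraries also share their makeup and their GC slopes. For Ggt5 they were Ephb3 (r = 0.980), Dapk1 (0.978), Tpcn1 (0.977), Chst12 (0.974) and Yipf3 (0.969), and after subtraction of the group means Man1c1 (0.952), Dapk1 (0.9498) and Ephb3 (0.939). Ephb3 and Dapk1 were therefore near Ggt5 both between and within groups. The most alike genes of the other members had lower r over all libraries, with Noxo1 for Ggt6 (0.885), Sbsn for Ggt7 (0.885) and Wdr53 for Ggt1 (0.826). Among those that followed were Mapk13, Dynlt1b, Cd164l2 and Dnajb13 for Ggt6 (0.819 to 0.831), Mrpl38, Clip3, Phka2 and Orai2 for Ggt7 (0.863 to 0.877) and Aamdc, Rtca and Blmh for Ggt1 (0.769 to 0.772). Within groups the nearest genes were Rdm1, Noxo1 and Slc25a25 for Ggt6 (0.894 to 0.925), Nptxr, Orai2 and Ppp2r2b for Ggt7 (0.901 to 0.966) and Grhl1, Neurl2 and Zfp296 for Ggt1 (0.855 to 0.874). The members were not among each other's nearest genes, with r from −0.30 to 0.19 over all libraries, and Ggt1 and Ggt5, neighbours on the chromosome, had r = −0.25.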

How the data were processed

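FPKM were deposited for 11 libraries, with no scaling between libraries beyond length and library total. The submitters' processing notes list cutadapt 1.15, HISAT2 2.0.5, HTSeq 0.9.1 and the build mm39. GENCODE M21 (GRCm38) held 21846 of the 21899 identifiers and gave coordinates and sequences. FPKM times exon length gave whole fragments (within 0.05) in all libraries for 98.1% of genes, and fragment numbers and library totals come from these steps.

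Values of log2(FPKM + 1) were fitted with limma 3.58.1 (R 4.3.3, mean-variance trend) for genes whose mean reached 0.5 FPKM, and calls needed an adjusted p under 0.05. On simulated data of 13991 genes, with the design of GGsTop against vehicle, the fit recovered 185 of 200 genes changed by 1 on the log2 scale, with 17 false calls. The changed genes were drawn at random from all of these, with the same spread for all genes and no GC slopes. This recovery therefore does not apply to genes as low as the members. Members and lists were chosen with earlier results of these data known. Named were all members, called list genes, the 3 list genes with the smallest p per comparison, the 5 genes most like each member and the 3 most like it within groups, and overlapping or neighbouring genes. One gene that this rule names is not reported here. PBS and OVA/LPS/GGsTop libraries of the same number deviated together from the mean of libraries 1 to 3 of their group. Their r was 0.158, 0.624 and 0.401 for numbers 1 to 3, above the 0.1 that was asked of each pair. PBS 1 was closer to OVA/LPS/GGsTop 3 (r = 0.419) than to its own number. The labels state no pairing, and whether the libraries are paired was not tested. Alternatives were another pseudocount, filter or scaling, array weights, GC correction (spline with 5 degrees of freedom), voom on recovered fragments, a replicate block and each library left out. Coding sequences were aligned with Biopython 1.88.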

Additional observations from a re-analysis of the deposited data

Results flagged for a closer look

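In 40 groups of 4 libraries looked at for the members and the list genes named, 5 held a library far from the other 3 of its group by Dixon's criterion, which chance meets in about 1 of 20 groups. Ggt1 was 1.25 FPKM in OVA/LPS/Vehicle 56 against 0.544 to 0.605 in the other libraries of the group. That library also had the highest thyroid and parathyroid sum (598 FPKM), while OVA/LPS/Vehicle 34, with a sum of 282 FPKM, had Ggt1 at 0.575 FPKM. Any link between them was not tested. Ggt1 was 0.242 FPKM in OVA/LPS/GGsTop 2 against 0.594 to 0.623, from 12 fragments against 30 to 32. Alox5 was 6.95 FPKM in OVA/LPS/GGsTop 2 against 5.26 to 5.54. In OVA/LPS/GGsTop 4, Chac2 was 7.04 FPKM against at most 5.13, and Gclm was 11.95 FPKM against 9.30 to 9.50.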

How the results depend on the processing

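The fall of Ggt5 from PBS to OVA/LPS/Vehicle kept its direction and its call in all 16 alternatives, from −1.07 to −0.51 (limma adjusted p from 0.000358 to 0.0278). No member was called in OVA/LPS/GGsTop against OVA/LPS/Vehicle in any alternative. Over all genes these alternatives called from 20 higher and 4 lower, without OVA/LPS/GGsTop 1, to 3232 higher and 1982 lower, with array weights. Over the 4 genes, 184 alternative values kept direction and side of the threshold, 13 changed sign and 5 passed the threshold. Array weights brought Ggt6 past it against PBS, with vehicle (0.79) and with GGsTop (1.002), and Ggt5 with GGsTop (−0.39), and GC correction brought Ggt6 past it in OVA/LPS/Vehicle (0.70). Of all 14004 genes, array weights called 3443 higher and 4473 lower in OVA/LPS/Vehicle against PBS, and 1379 and 1178 in OVA/LPS/GGsTop against PBS. The sign of Ggt1, near 0 in OVA/LPS/Vehicle against PBS, turned with a pseudocount of 0.1 (0.013), array weights (0.22), GC correction (0.29) and voom (0.0098). GC correction also turned Ggt7 in OVA/LPS/Vehicle against PBS (0.23), Ggt6 and Ggt7 with GGsTop against vehicle (−0.094 and −0.023), and Slc7a11 and Cysltr1 in OVA/LPS/Vehicle against PBS (−0.13 and −0.19). Array weights turned Ggt1 in OVA/LPS/GGsTop against PBS (0.079). The cause of these changes was not tested. With libraries scaled to the same FPKM total, the median difference of all genes was −0.15 in OVA/LPS/Vehicle against PBS and 0.11 with GGsTop against vehicle.

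With single libraries left out, Ggt1 ranged from −0.19 to 0.14 and Ggt5 from −0.80 to −0.51 in OVA/LPS/Vehicle against PBS, and Ggt5 from −0.52 to −0.24 in OVA/LPS/GGsTop against PBS, where it passed the threshold without PBS 2 only. With GGsTop against vehicle, Ggt6 ranged from 0.074 to 0.33 and Ggt7 from 0.14 to 0.40, and against PBS Ggt6 ranged from 0.11 to 0.55 with vehicle and from 0.30 to 0.74 with GGsTop. Ggt7 ranged from −0.27 to −0.013 in OVA/LPS/Vehicle against PBS, and the value near 0 was that without OVA/LPS/Vehicle 78. Where a group is left with few libraries, the fit takes the spread from all groups. The count of cycle genes called in OVA/LPS/Vehicle against PBS was 1 to 4 higher and 1 to 5 lower with single libraries left out. It was 2 higher and 3 lower with only these groups in the fit, 0 higher and 2 lower after GC correction, 1 higher with the same FPKM total and 3 lower with the same median. Over all genes these settings called 1771 higher and 2610 lower, 1101 higher and 1803 lower, 1232 higher, and 2821 lower. With GGsTop against vehicle, array weights called 3 higher and 2 lower, a fit of only these groups 1 higher and 1 lower, and the same FPKM total 2 higher. Of all 14004 genes these settings called 3232 higher and 1982 lower, 2119 higher and 1406 lower, and 2026 higher. In OVA/LPS/GGsTop against PBS, array weights called 2 higher, and single libraries left out gave 0 to 1 higher and 0 to 1 lower, with 1 and 1 without PBS 2. Over all genes array weights called 1379 higher there, and 949 were called higher and 639 lower without PBS 2.

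With the replicate block of PBS and OVA/LPS/GGsTop 1 to 3, Ggt5 differed by −0.39 (SE 0.16, limma adjusted p = 0.298), against 0.485 for the same libraries without the block, and the block changed no call of a member or a cycle gene, also after GC correction. OVA/LPS/GGsTop 3 correlated slightly better with PBS 1 (r = 0.419) than with its own number (0.401). With a minimum mean of 1 FPKM, Ggt1 and Ggt7 were not tested. For Ggt1, Ggt6 and Ggt7 the 12 to 72 fragments per library limit what can be seen.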
